A study of Homo sapiens with 2 samples.

Results

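Binding at the genes of the peroxisome proliferator-activated receptors (PPARs) and of the fatty acid oxidation they control was examined in MDA-MB-231 cells. The genes were chosen by name and by what they do, but with earlier results of these data known, those of PPARA included. They comprise the receptor genes PPARA, PPARD and PPARG, the partner receptor gene RXRA, the coactivator genes PPARGC1A and PPARGC1B, and the enzyme genes CPT1A and PDK4, which makes 8 of 20037 protein-coding genes in the annotation. A peak was counted for a gene when it lay inside the gene or within 20 kb of it. This gave 69 of 61717 RUNX2 peaks and 49 of 42698 MTA1 peaks.

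MDA-MB-231 is an established human line of triple-negative breast cancer. The labels give no treatment and no genetic change for either library, and both came from cells grown in medium with serum. The libraries differed by the antibody, which was against RUNX2, a Runt-domain transcription factor of bone formation, or against MTA1, a subunit of the NuRD complex that remodels and deacetylates chromatin. The authors' methods name CUT&Tag for both, an assay in which a transposase is directed to the antibody and cuts the DNA around the bound protein. The labels describe adaptor ligation and gel selection, so the library preparation is uncertain. There was 1 library per antibody and no control library was used here, so no value has a replicate, no test was run, and the differences between the lists are differences between single libraries. The deposited lists hold no read counts, so the depth of the libraries is unknown, and a gene with no peak can have had a weak signal or none. Each peak carries a score of unstated scale, with a median of 6.70 for RUNX2 and 7.58 for MTA1, and a score is given here with the percentage of peaks in its own list that scored lower. As a check of the cell line, which is known to lack CDKN2A, the 67.6 kb window of that gene was examined and held 0 RUNX2 and 0 MTA1 peaks. Such windows held a RUNX2 peak at 84.4% of all protein-coding genes and an MTA1 peak at 79.7%. An empty window alone therefore does not show the loss of the gene.

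PPARs are nuclear receptors that are switched on by fatty acids and related ligands and bind DNA as pairs with a retinoid X receptor, such as the product of RXRA. PPARα drives the breakdown of fatty acids in liver, heart and muscle, PPARδ does so more broadly, and PPARγ directs fat cell formation and lipid storage. The PGC-1 coactivators, encoded by PPARGC1A and PPARGC1B, raise the output of these receptors and the number of mitochondria. CPT1A makes the acylcarnitines that carry long-chain fatty acids into mitochondria, and PDK4 switches off pyruvate dehydrogenase, so that cells burn fat in place of glucose.

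RUNX2 and MTA1 peaks were found at every one of these genes, which is also the usual state of a protein-coding gene. A RUNX2 peak was present at 8 of 8 genes, against 84.4% of all protein-coding genes. An MTA1 peak was present at 8 of 8, against 79.7%. Peaks of both lists occurred at 8 of 8, against 76.9%, and an overlapping pair, sharing at least 1 bp, at 8 of 8, against 71.0%. The windows are of unlike length, with a median of 144 kb for the 8 genes and 64.1 kb for all protein-coding genes. The genes differed far more in how many peaks they held, where these lay and how they scored. RUNX2 peaks numbered 2 at PDK4, 5 at PPARG, 7 at CPT1A, 8 at PPARA, 9 at PPARD, 9 at PPARGC1B, 14 at RXRA and 15 at PPARGC1A. MTA1 peaks numbered 1 at PPARG, 1 at PDK4, 3 at CPT1A, 4 at PPARA, 5 at PPARGC1B, 10 at PPARD, 12 at PPARGC1A and 13 at RXRA. PPARD was the gene with more MTA1 than RUNX2 peaks, and the other 7 had more RUNX2 peaks.

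**Figure D1:**
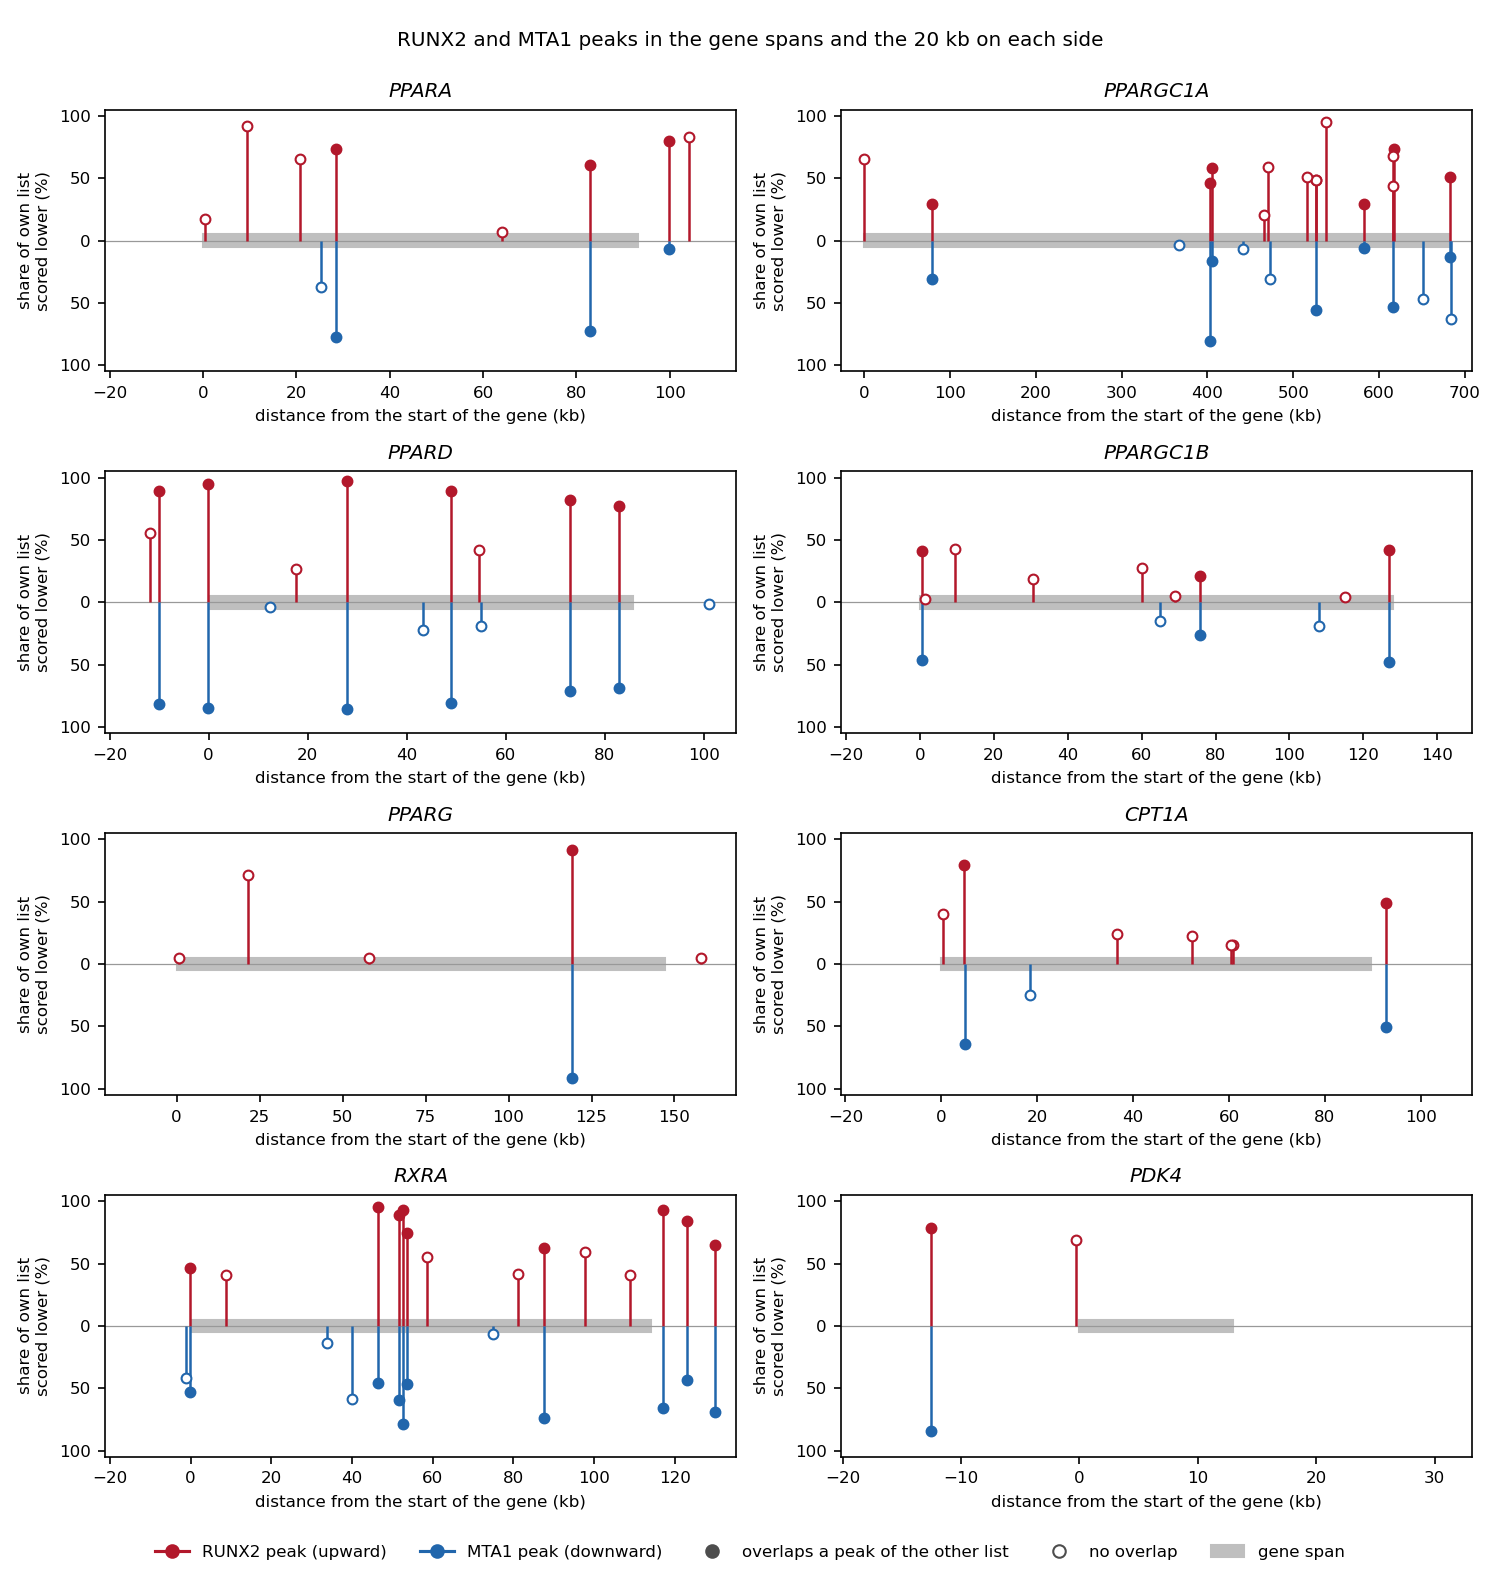
RUNX2 peaks (red, upward) and MTA1 peaks (blue, downward) at the 8 genes, by distance of the peak centre from the start of the gene in kb (horizontal axis) and by the percentage of peaks in the same list that scored lower (vertical axis). Filled circles overlap a peak of the other list, open circles do not, and the grey bar is the gene span. PPARD and RXRA carry rows of paired peaks, whereas PPARG has 1 pair and PPARGC1B has no RUNX2 peak ranked above 43.1%.

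At the starts of the genes the lists parted. The start was taken as the outer end of the gene on its 5′ side, and a peak within 3 kb of it was counted. At PPARGC1B this end lies 41.6 kb from the only start in the RefSeq promoter table, as is the case by over 3 kb for 5.98% of protein-coding genes, whereas at the other 7 genes it is itself a listed start. RUNX2 peaks met this at 8 of 8 genes, against 55.6% of the 15843 protein-coding genes with a known strand. MTA1 peaks met it at 3 of 8, PPARD, RXRA and PPARGC1B, against 56.7%, and these were also the 3 of 8 genes with both, against 49.2%. When peaks scoring under the median of their list were left out, 1 of 8 had both, PPARD. The share of all genes under this filter is not given here, and the 49.2% does not apply to it. PPARA, PPARG, PPARGC1A, CPT1A and PDK4 had a RUNX2 peak and no MTA1 peak at the start, which made 5 of 8, against 6.38% of all genes. The nearest MTA1 peak lay 25.2 kb from the start of PPARA, 93.6 kb from that of PPARG, 78.6 kb from that of PPARGC1A, 4.72 kb from that of CPT1A and 12.3 kb from that of PDK4. The one at PPARG was upstream and outside its 20 kb window. Counting listed starts instead, which was chosen after seeing the data, removed PPARGC1B. RUNX2 peaks then met the rule at 7 of 8 genes (58.3% of all genes), MTA1 peaks at 2 of 8 (59.0%), both at 2 of 8 (51.7%), and RUNX2 without MTA1 at the same 5 of 8 (6.53%).

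**Figure D2:**
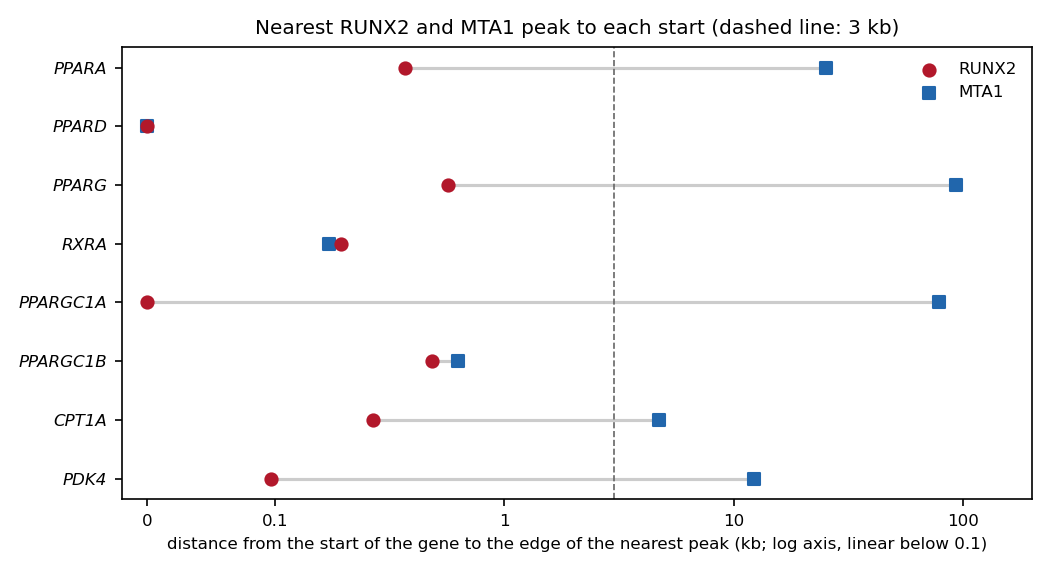
Distance in kb (log axis, linear below 0.1) from the start of each gene (its outer 5′ end) to the nearest edge of the closest RUNX2 peak (red circle) and the closest MTA1 peak (blue square), with a dashed line at 3 kb. RUNX2 lies within 0.571 kb of all 8 outer ends, and MTA1 lies beyond 3 kb at 5 of them, but at PPARGC1B the only listed start is 11.1 kb from RUNX2 and 23.3 kb from MTA1.

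Most of these RUNX2 peaks at starts scored low. The nearest one scored 3.48 at PPARG, above 4.94% of the list, 4.52 at PPARA, above 17.1%, 5.43 at CPT1A, above 40.3%, 5.52 at PPARGC1B, above 40.8%, and 6.21 at RXRA, above 46.2%. PPARGC1A at 9.26, above 65.8%, and PDK4 at 10.1, above 68.8%, were in the upper part of the list, and PPARD stood alone with 33.4, above 95.2%. Over all genes the absence of MTA1 moved with this score. Among 8805 genes with a RUNX2 peak at the start, 11.5% had no MTA1 peak there. The share was 31.8% of 2212 genes whose strongest start peak scored below the list median, 9.21% of 2649 between the median and the upper quartile of 12.2, and 1.60% of 3944 at or above it. Of the 8 genes, 3 of 5 in the lowest class, 2 of 2 in the middle class and 0 of 1 in the highest lacked MTA1. How much of the pattern at the 8 genes goes with these low scores was not tested.

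The DNA just before the starts is shown for PPARA, PPARD, PPARGC1A and PDK4, which differ in whether RUNX2 and MTA1 peaks lay on it. Each line holds the 250 bases before a start, 5′ to 3′ on the strand of the gene, from RefSeq (GRCh38.p14). Capitals mark the bases under a RUNX2 peak.
PPARA, chr22:46150276-46150525, plus strand: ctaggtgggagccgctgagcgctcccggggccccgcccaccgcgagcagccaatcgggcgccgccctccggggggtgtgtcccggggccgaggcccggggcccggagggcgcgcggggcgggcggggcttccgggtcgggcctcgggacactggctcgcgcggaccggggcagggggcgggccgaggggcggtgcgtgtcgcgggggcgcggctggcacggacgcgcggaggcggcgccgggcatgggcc
PPARD, chr6:35342308-35342557, plus strand: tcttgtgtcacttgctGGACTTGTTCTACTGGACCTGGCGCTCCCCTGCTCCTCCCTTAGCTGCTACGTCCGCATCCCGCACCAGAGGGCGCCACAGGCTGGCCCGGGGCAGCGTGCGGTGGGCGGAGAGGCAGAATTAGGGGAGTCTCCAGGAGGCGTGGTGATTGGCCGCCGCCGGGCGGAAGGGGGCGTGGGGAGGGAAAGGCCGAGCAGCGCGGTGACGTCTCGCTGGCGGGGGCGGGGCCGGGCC
PPARGC1A, chr4:24472906-24473155, minus strand: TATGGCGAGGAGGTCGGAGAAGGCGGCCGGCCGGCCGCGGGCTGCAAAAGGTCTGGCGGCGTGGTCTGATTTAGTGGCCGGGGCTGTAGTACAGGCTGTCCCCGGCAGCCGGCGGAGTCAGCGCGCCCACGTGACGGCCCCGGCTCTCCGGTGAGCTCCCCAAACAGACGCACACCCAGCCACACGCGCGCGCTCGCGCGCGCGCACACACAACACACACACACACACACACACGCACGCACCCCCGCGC
PDK4, chr7:95596517-95596766, minus strand: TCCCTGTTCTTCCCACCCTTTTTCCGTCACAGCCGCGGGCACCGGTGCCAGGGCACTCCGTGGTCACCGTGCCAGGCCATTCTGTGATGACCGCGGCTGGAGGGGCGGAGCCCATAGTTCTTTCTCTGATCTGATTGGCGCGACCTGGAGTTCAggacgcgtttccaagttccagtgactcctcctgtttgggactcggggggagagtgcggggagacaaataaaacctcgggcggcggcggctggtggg
The RUNX2 peak covered 234 of these bases at PPARD, 250 at PPARGC1A and 154 at PDK4, and 0 at PPARA. MTA1 covered 211 at PPARD and 0 at the others. The PPARA stretch was dense in CG pairs, with 41, more than 97.8% of 22199 protein-coding promoters, against 33 at PPARGC1A, 23 at PPARD and 19 at PDK4. In the wider windows of RefSeq, from 250 bases before to 50 after a start, 16 are listed for the 8 genes. RUNX2 peaks touched 5 of them (31.2%) and MTA1 peaks 3 (18.8%), against 37.5% and 40.7% of all protein-coding windows. Of the 16 windows, 6 belong to PPARG, some of which overlap each other, and no peak touched any of these.

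PPARA encodes PPARα. Its 133 kb window held 8 RUNX2 peaks, 6 of them inside the gene, and 4 MTA1 peaks, 3 of them inside. The RUNX2 peak at the start, chr22:46150896-46150994, began 370 bp downstream of the outer start and 108 bp downstream of a second listed start. It had the smallest width in the list, 99 bp, which 31.7% of RUNX2 peaks share, and its score of 4.52 was shared by 900 peaks. The strongest RUNX2 peak of the gene, chr22:46159813-46160143, lay inside it 9.29 kb from the start, scored 26.5 and ranked 4827 of 61717. No MTA1 peak overlapped it, although 92.2% of the 4835 RUNX2 peaks that scored as high did overlap one.

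Where both proteins had peaks at PPARA, the sites lay well inside the gene or past its end. The pair at 28.4 kb from the start scored 11.6 for RUNX2, above 73.5% of its list, and 13.8 for MTA1, above 77.0%, and the latter was the strongest MTA1 peak of the gene. The pair at 83 kb scored 8.22 for RUNX2, above 60.6%, and 12.1 for MTA1, above 72.3%. The third pair, 6.41 kb past the far end and within the neighbouring gene CDPF1, was unequal, with a RUNX2 score of 14.6, above 80.2%, and an MTA1 score of 4.07, above 6.66%. The MTA1 peak closest to the start, at 25.2 kb, had the narrowest MTA1 width, 116 bp, a score of 6.17, and no RUNX2 partner. The authors report RUNX2, MTA1 and CUL4B at the PPARA promoter by chromatin immunoprecipitation with PCR, and by sequential immunoprecipitation. They also report less MTA1 at target gene promoters after RUNX2 knockdown, and more PPARα protein after depletion of RUNX2, MTA1 or CUL4B. Of the 2 PCR primers, 0 were found in the 2 RefSeq windows of PPARA, so the site they tested was not placed beside these peaks. The lack of an MTA1 peak near the start does not show that MTA1 was absent there.

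PPARD, the gene of PPARδ, had the strongest RUNX2 peak and the most pairs among the PPAR receptor genes, RXRA not counted. It held 9 RUNX2 and 10 MTA1 peaks in 126 kb, and 6 of the RUNX2 peaks overlapped an MTA1 peak, against 3 of 8 at PPARA and 1 of 5 at PPARG. A pair lay on the start itself, RUNX2 chr6:35342324-35342664 with a score of 33.4 and MTA1 chr6:35342347-35342568 with a score of 18.1, above 85.1% of its list. The strongest peaks of both lists met 27.9 kb inside the gene, where RUNX2 scored 43.6, above 97.7%, and MTA1 scored 18.3, above 85.4%. The other 4 pairs, 1 of them 10.0 kb upstream and the rest inside, had RUNX2 scores of 13.0 to 22.1 and MTA1 scores of 11.1 to 15.9. In contrast, the unpaired peaks of PPARD all scored below the median of their list except for a RUNX2 peak of 7.27 upstream.

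PPARG, the gene of PPARγ, had the fewest peaks of the receptor genes. Its 187 kb window held 5 RUNX2 peaks and 1 MTA1 peak. The only pair lay 119 kb from the start, RUNX2 chr3:12405778-12406050 and MTA1 chr3:12405753-12406085, and it was strong in both lists, with scores of 25.1, above 91.3%, and 23.4, above 91.2%. A RUNX2 peak of 10.9 stood 21.4 kb inside the gene with no MTA1. The other 3 RUNX2 peaks, the one at the start included, had the same score of 3.48, which 570 peaks share, and the narrowest width. None of the 6 RefSeq start windows of PPARG was touched by a peak of either list.

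RXRA encodes the retinoid X receptor α, the common partner of the PPARs. It was the gene with the highest density, with 14 RUNX2 and 13 MTA1 peaks in 154 kb, of which 9 overlapped in each list. The peaks at its outer start were of middle rank, with RUNX2 194 bp upstream at 6.21 and MTA1 173 bp upstream at 7.87, above 52.7% of its list, and a second MTA1 peak of 6.66 stood 1.06 kb upstream. A run of 4 pairs lay between 46.5 and 53.7 kb inside the gene. RUNX2 scored 34.3, 22, 27.8 and 11.8 along this run, and MTA1 scored 7.02, 9.01, 14.4 and 7.17. The highest RUNX2 peak of the gene was thus the first of the run, and the highest MTA1 peak the one of the third pair. The first and the last MTA1 peak of the run scored below the MTA1 median. A further pair at 87.5 kb had a RUNX2 score of 8.56, above 62.3%, and an MTA1 score of 12.6, above 74.0%, the second highest MTA1 score of the gene. Past the far end, 3 more pairs had RUNX2 scores of 27.8, 17.1 and 9.04 and MTA1 scores of 10.3, 6.86 and 11.

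The third pair of that run, RUNX2 chr9:134378938-134379282 and MTA1 chr9:134378924-134379277, lay directly before an internal start of RXRA, 13 and 18 bp from it. The 250 bases before this start are shown because they carry both peaks and the letters of a RUNX core, with the bases under the RUNX2 peak in capitals (RefSeq, GRCh38.p14).
RXRA internal start, chr9:134379045-134379294, plus strand: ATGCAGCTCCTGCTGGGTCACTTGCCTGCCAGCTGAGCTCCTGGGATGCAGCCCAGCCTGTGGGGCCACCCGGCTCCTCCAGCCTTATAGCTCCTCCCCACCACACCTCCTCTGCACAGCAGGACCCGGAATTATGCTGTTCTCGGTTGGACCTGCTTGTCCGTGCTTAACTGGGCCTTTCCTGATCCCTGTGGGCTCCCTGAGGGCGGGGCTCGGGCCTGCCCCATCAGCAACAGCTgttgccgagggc
RUNX2 covered 238 of these bases and MTA1 covered 233. With 7 CG pairs, more than 28.0% of promoters hold, this stretch was far poorer in CG than that of PPARA. The stretch before the outer start of RXRA held 59. Before the internal start, a TGTGGT, the core that RUNX factors prefer, was found on the other strand, where the printed line reads ACCACA. It lay 151 bases before the internal start and under both peaks. On both strands, this core was found in 11.3% of 22199 protein-coding promoter windows and in 3 of the 16 windows of the 8 genes, those being this one of RXRA and 2 overlapping windows of PPARG that hold the same site. The looser TGNGGT, which includes it, was found in 41.8% and in 6 of 16. The PPAR half-site AGGTCA was found in 11.9% and in 3 of 16, all of PPARG, which hold 3 sites in all, since 2 of these windows overlap. The full response element, 2 copies of AGGTCA with 1 base between, was found in 5 promoters in all and in 0 of 16. The letters are a description of these windows, and none of the PPARG windows that hold them lay under a peak.

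PPARGC1A, the gene of PGC-1α, had the most RUNX2 peaks, 15, and 12 MTA1 peaks, but over the longest window, 721 kb. RUNX2 chr4:24472836-24473166 covered its outer start with a score of 9.26 and no MTA1 peak within 78.6 kb. The strongest RUNX2 peak, chr4:23934970-23935185, scored 33.5 and ranked 2900 of 61717. As at PPARA, it had no MTA1 partner, although 94.6% of the 2900 peaks that scored as high had one. It lay inside the gene, 538 kb from the outer start and 53.9 kb from the nearer listed one. The strongest MTA1 peak, at 15.4 above 80.6% of its list, overlapped a RUNX2 peak of only 6.25, above 46.3%. Of the 15 RUNX2 peaks, 11 had a score shared by at least 100 peaks, as had 10 of the 12 MTA1 peaks.

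PPARGC1B, the gene of the related coactivator PGC-1β, had peaks of both lists that were all weak. Its 9 RUNX2 peaks scored from 3.24 to 5.87 and its 5 MTA1 peaks from 4.84 to 7.29, so that every one fell below the median of its list. All of them lay inside the gene, and 5 and 3 of them had the narrowest width. The best RUNX2 peak was lower than at the other 7 genes, and 26.8% of protein-coding genes had a lower best score. At its outer 5′ end, a RUNX2 peak of 5.52 at 485 bp overlapped an MTA1 peak of 7.14 at 632 bp. The only start in the promoter table is internal, and the nearest RUNX2 and MTA1 peaks lay 11.1 and 23.3 kb from it. The other 2 pairs lay at 75.7 kb and at 127 kb, the latter 136 bp (RUNX2) and 130 bp (MTA1) from the far end.

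CPT1A, the enzyme at the gate of mitochondrial fatty acid import, had 7 RUNX2 and 3 MTA1 peaks in 130 kb. The strongest of both lists met just past the start region, RUNX2 chr11:68839349-68839837 and MTA1 chr11:68839201-68839555, 4.44 and 4.72 kb from the start. Their scores were 14.3, above 79.7%, and 9.84, above 63.8%. The start itself had a RUNX2 peak of 5.43 at 268 bp downstream with no partner. A second pair, of 6.56 and 7.63, lay past the far end within TESMIN. The 4 remaining RUNX2 peaks scored from 4.42 to 4.87 and had the narrowest width.

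PDK4, the kinase that turns off pyruvate dehydrogenase, was the shortest gene and held no peak inside it. RUNX2 chr7:95596613-95596973 stood 97 bp upstream of the start with a score of 10.1 and no MTA1. A pair stood 12.5 kb upstream, RUNX2 chr7:95608776-95609159 at 14, above 78.9%, and MTA1 chr7:95608805-95609158 at 17.4, above 84.0%. All 3 peaks lay in the antisense gene PDK4-AS1, and the assay does not assign them to either gene. Both enzyme genes thus had their strongest pair away from the start, within the gene at CPT1A and upstream of it at PDK4.

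Across the 8 genes the overlap of the lists was close to that of the genome. Of the 69 RUNX2 peaks, 32 overlapped an MTA1 peak, 46.4% (exact 95% interval 34.3 to 58.8), against 48.6% in the windows of all protein-coding genes. Of the 49 MTA1 peaks, 32 met a RUNX2 peak, 65.3% (50.4 to 78.3), against 66.9%. These Clopper-Pearson intervals cover counting error over peaks only. Among peaks in the upper part of their list, at or above its median, 23 of 36 RUNX2 peaks overlapped (63.9%, 46.2 to 79.2), against 73.0% in all windows, and 21 of 23 MTA1 peaks (91.3%, 72.0 to 98.9), against 89.1%. The 32 overlapping peaks of each list form the same 32 pairs, so the shares of the lists are not separate results. The intervals are wide and treat neighbouring peaks as independent, so they do not show whether these genes are like the genome. By gene, the overlapping RUNX2 peaks ranged from 1 of 5 at PPARG (exact 95% interval 0.505% to 71.6%) to 6 of 9 at PPARD (29.9% to 92.5%), and these intervals are wide and overlap. The scores as a whole were ordinary, with a median of 6.87 for the RUNX2 peaks and 7.26 for the MTA1 peaks.

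Where the lists met, the ranks of the partners differed by gene. RUNX2 ranked higher in its list than MTA1 did in its own in 19 of the 32 pairs, and MTA1 ranked higher in 13, against 15877 and 12120 of all 27997 pairs. At PPARD, RUNX2 ranked higher in 6 of 6 pairs, by 7.5 to 12.3 percentage points. At PPARGC1B, MTA1 ranked higher in 3 of 3, by a small margin. The widest gap was that of the PPARA pair in CDPF1, 73.5 percentage points, and the pairs of RXRA spread from 50.2 points in favour of RUNX2 to a lead for MTA1. The PPARG pair was even, to within 0.1 points.

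**Figure D3:**
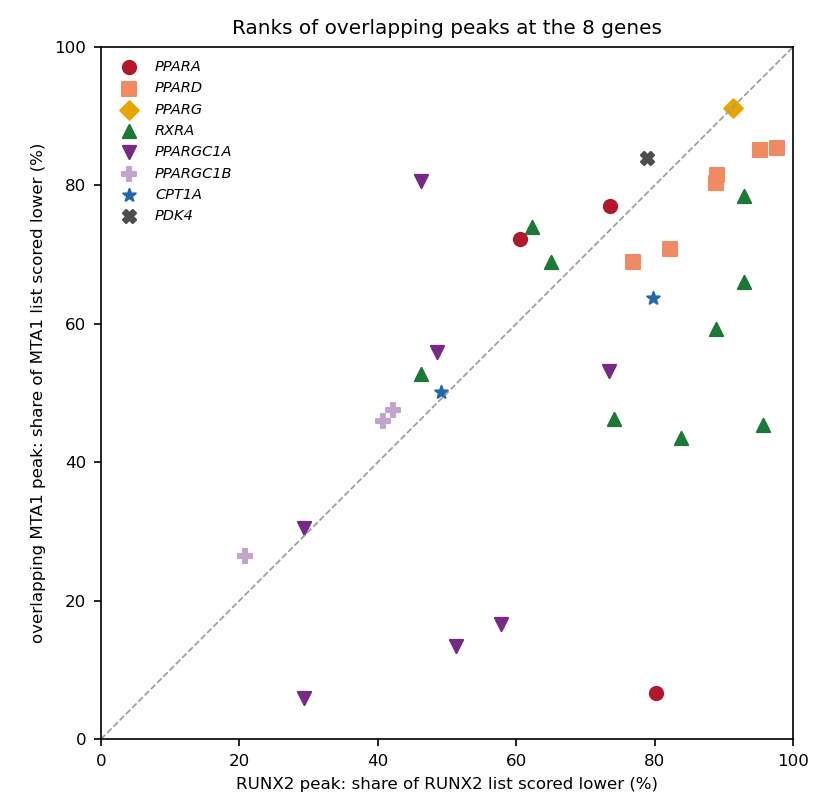
Ranks of the 32 overlapping pairs at the 8 genes, as the percentage of the RUNX2 list that scored lower than the RUNX2 peak (horizontal axis) and of the MTA1 list that scored lower than its overlapping MTA1 peak (vertical axis), with one symbol per gene. Points below the dashed line of equal rank, 19 of 32, rank higher for RUNX2, and all 6 of PPARD lie there.

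Peak counts depend on the length of the gene, so they were also given per 100 kb of window. RXRA had 9.08 RUNX2 and 8.43 MTA1 peaks per 100 kb, more than 87.9% and 90.0% of protein-coding genes. PPARD had 7.16 and 7.96, more than 79.7% and 88.6%. PPARA had 6 and 3 per 100 kb, more than 71.9% and 54.8%, so that it stood higher among genes for RUNX2 than for MTA1. CPT1A had 5.4 and 2.31, PPARGC1B 5.37 and 2.98, and PDK4 3.77 and 1.89. PPARG was low for both, at 2.67 and 0.535, and so was PPARGC1A, at 2.08 and 1.66, for all its peaks. The medians of the 8 genes, 5.38 and 2.65, compare with 3.57 and 2.48 over all protein-coding genes.

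**Figure D4:**
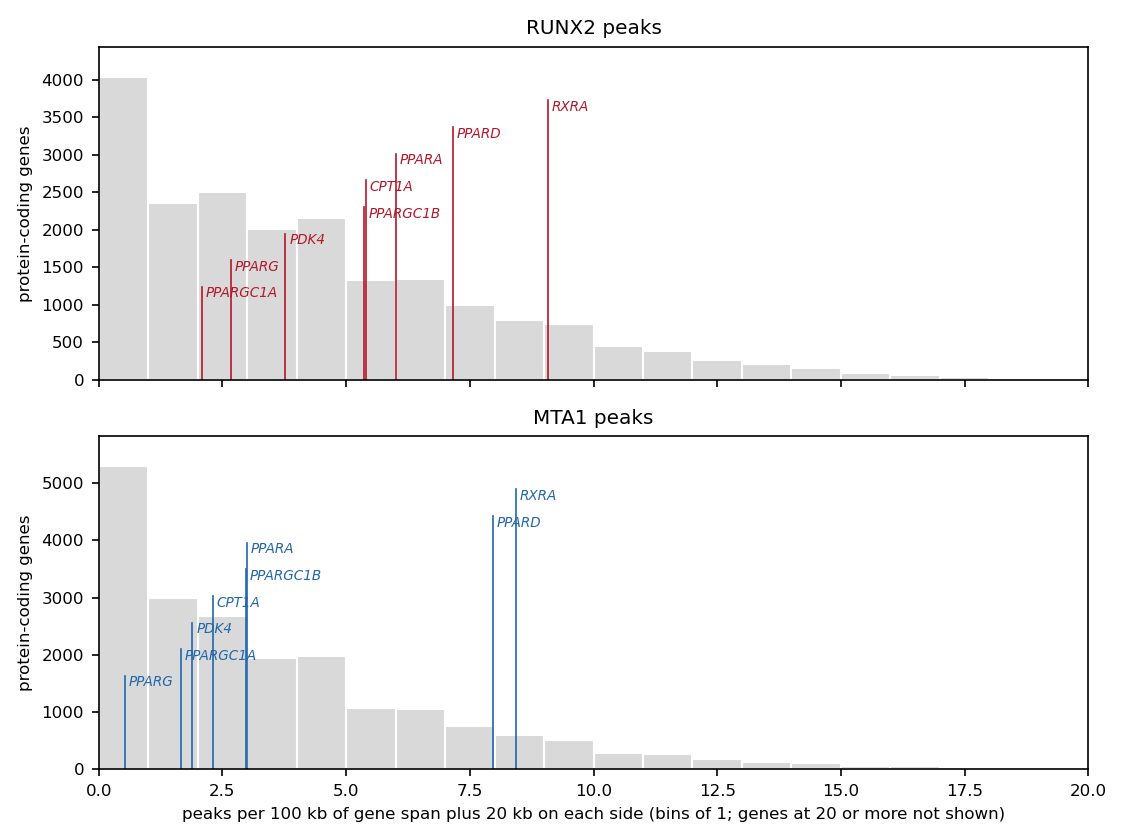
Peaks per 100 kb of gene span plus 20 kb on each side (horizontal axis) for RUNX2 (top) and MTA1 (bottom), as the number of protein-coding genes in bins of 1 (grey bars), with lines at the 8 genes, whose heights only separate the names. RXRA and PPARD stand to the right in both panels, at 9.08 and 7.16 for RUNX2 and 8.43 and 7.96 for MTA1, and PPARG stands to the left for MTA1, at 0.535.

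The surrounding pathway was followed in a list of 64 further genes in 8 groups, from the other RXR genes and coactivators to the enzymes of the mitochondrion and the peroxisome. A RUNX2 peak was present at 59 of 64 (84.4% of all protein-coding genes), an MTA1 peak at 56 (79.7%), both at 56 (76.9%) and an overlapping pair at 55 (71.0%). A window can hold other genes, and a peak in it was not assigned to 1 gene. The 3 highest RUNX2 scores were at ANGPTL4, an inhibitor of lipoprotein lipase and a classical PPAR target, with 79.3, at RXRG with 65.0, and at ACOX2, a peroxisomal oxidase, with 64.6. The 3 highest MTA1 scores were at TXNIP, a thioredoxin-binding protein that restrains glucose uptake, with 66.0, at PPRC1, the remaining PGC-1 relative, with 55.6, and again at ANGPTL4, with 46.8. The other RXR genes thus had RUNX2 peaks stronger than any at RXRA, 65.0 at RXRG and 40 at RXRB, and MTA1 scores of 4.84 and 24.2. Neither list had a peak at PDK3, CD36, FABP4, CYP4A11 or ACOT2. A RUNX2 peak was lacking at these 5 of 64 alone, where 84.4% of all protein-coding genes had one.

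Most of the pathway genes had peaks of both lists at their starts, or of neither, and so did most of all protein-coding genes. Of 51 with a known strand, 36 had peaks of both lists within 3 kb of the start, 2 had RUNX2 alone and 3 had MTA1 alone, where the shares of all genes were 49.2%, 6.38% and 7.45%, and 37.0% had neither. The 2 with RUNX2 alone were FABP3, a fatty acid binding protein, and ACSL4, an acyl-CoA synthetase, both named after their values were seen. In the mitochondrial beta-oxidation group, 13 of 13 genes with a known strand had both, and HADHA and HADHB share their highest peaks. Among the coactivators and corepressors, 9 of 10 had both. Of 3 other pyruvate dehydrogenase kinase genes, 2 had both at the start, PDK1 and PDK2, also named after their values were seen.

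**Figure D5:**
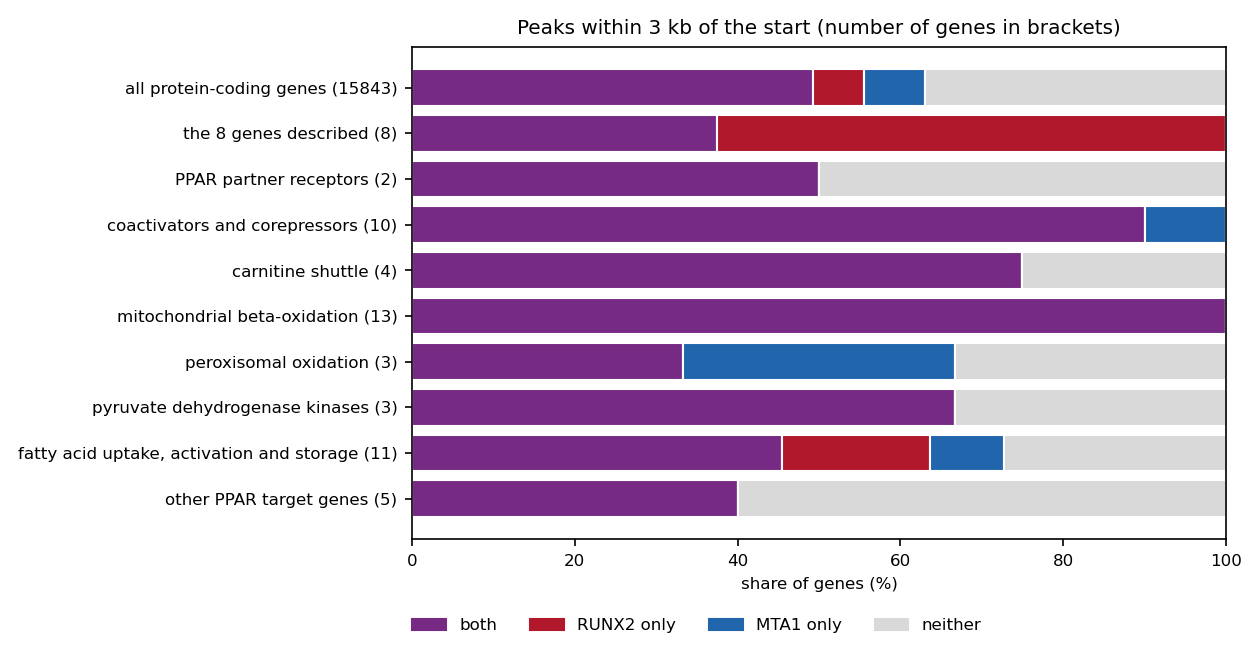
Share of genes in percent (horizontal axis) with peaks of both lists, RUNX2 only, MTA1 only or neither within 3 kb of the start, for all protein-coding genes, the 8 genes described and the pathway groups, with the number of genes in brackets. RUNX2 alone makes up 62.5% of the 8 genes and 6.38% of all genes, and all 13 mitochondrial beta-oxidation genes have both.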

How the data were processed

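CUT&Tag peaks were analysed for 1 RUNX2 and 1 MTA1 library of MDA-MB-231 cells. The authors deposited 1 peak list per library, with position and a score of unstated scale, which was used only to rank and filter peaks within its own list. The submitters' processing notes name CASAVA 1.4, Bowtie 0.12.8, MACS, MACS2 and hg19, with no role. The caller threshold and any control library are not given in the sources used here. The labels and the methods name different antibody suppliers, and the labels describe adaptor ligation and gel selection, which CUT&Tag does not usually need, so the library preparation is uncertain.

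The positions were found to match GRCh38 and not hg19. Peaks reached positions 83203358 (RUNX2) and 83203435 (MTA1) on chromosome 17, past its hg19 end. The share of peaks within 1 kb of a protein-coding start was 15.4% for RUNX2 and 21.9% for MTA1, and fell to 2.29% and 2.48% when all peaks were moved by 100 kb. It fell on 8 of 8 chromosomes that carry the genes described, in both lists. Gene spans came from RefSeq (GRCh38.p14), and strand, listed starts and sequences from its promoter table, which gave a strand for 15843 of 20037 protein-coding genes. The start of a gene was the outer end of its span on the 5′ side. Peaks overlapped when they shared at least 1 bp. The 17 RUNX2 and 15 MTA1 mitochondrial peaks were left out, and ranks were taken in the full lists. Letters were searched on both strands. Alternatives were other windows, stricter overlap, merged neighbours, and only high-scoring or wider peaks. Assignment and overlap were tested on simulated data. The work was done in Python 3.11.15 with pandas 2.3.3, numpy 2.4.6 and scipy 1.17.1, and drawn with matplotlib 3.10.9.

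The genes, the pathway list and the measures were chosen with earlier results of these data known. By rule, all 8 genes were named with their highest peaks, start peaks and overlapping pairs, and of the pathway list the 3 highest genes per list, the other RXR genes and genes with no peak. No peak sequence was read, since no genome was used here.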

Additional observations from a re-analysis of the deposited data

How the results depend on the processing

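Of 57 values recomputed under other settings, 40 stayed within 1.5 times the reported count and 17 did not. With only the top 10000 peaks by score, the RUNX2 peaks at the 8 genes numbered 11 and the MTA1 peaks 9 (69 and 49 in the full lists), PPARA kept 1 RUNX2 and 1 MTA1 peak (8 and 4), 6 RUNX2 peaks overlapped MTA1 (32), 5 genes had peaks of both lists (8), 1 had both at the start (3) and 38 pathway genes had a RUNX2 peak (59). With the upper part of each list by score (at or above its median), there were 36 RUNX2 and 23 MTA1 peaks, 17 overlapping RUNX2 peaks, 2 MTA1 peaks at PPARA and 1 gene, PPARD, with both at the start. With peaks wider than the narrowest width, 32 MTA1 peaks were left and 1 gene had both at the start. A window of 50 kb on each side gave 8 MTA1 peaks at PPARA. Chosen after seeing the data, counting either end of the gene gave 5 genes with both and counting listed starts gave 2. These settings change the counts by construction, since they use fewer peaks, a wider window or other ends of the gene. Except for listed starts, no share of all protein-coding genes is given here for them, so the full-list shares do not apply. Among the values that stayed within the limit, 43 pathway genes had an MTA1 peak with the top 10000 peaks, against 56. The share of overlapping RUNX2 peaks ran from 36.2% to 54.5% over all settings (46.4% as reported). No paired analysis was possible because each antibody has 1 library. The unknown depth, the lack of a replicate and of a control library, and the unstated threshold limit every count.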

Other observations

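Among the microRNA genes of RefSeq, 2 lay inside the 8 genes, both on the strand of their host, and both were singled out after their values were seen. MIR378A lies in PPARGC1B, and its hairpin was 1.03 kb from the nearest RUNX2 peak, which scored 3.24, and 1.77 kb from the nearest MTA1 peak, which scored 7.14. MIR4669 lies in RXRA, 129 bp from the RUNX2 peak of 27.8 and 134 bp from the MTA1 peak of 14.4 at the internal start. The mature sequences are shown to identify them, with the seed (bases 2 to 8) in capitals (RefSeq, GRCh38.p14).
hsa-miR-378a-5p: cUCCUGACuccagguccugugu
hsa-miR-378a-3p: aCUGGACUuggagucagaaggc
hsa-miR-4669: uGUGUCCGggaaguggaggagg
The seed of hsa-miR-378a-3p is shared by 7 mature miRNAs of the table, and the other seeds by none but their own. The peaks of this region are those already described for the host genes, and no small RNA was measured.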
